A study of Mus musculus with 79 samples.

Results

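Lysosomal enzymes and the genes of the proton pump that acidifies the lysosome were followed through regenerating mouse nerve. The 34 genes were taken by symbol from the 23361 genes of the count files, from a list made by function rather than by a threshold on values. Earlier results of these data were known when the list was chosen. They comprised 10 cathepsins and related proteases, 11 hydrolases and their activator, 6 membrane and cholesterol transport proteins, the transcription factor gene Tfeb and 6 genes of the vacuolar proton pump (V-ATPase). All 34 passed the filter on low counts in every comparison.

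The study asked how nerve regeneration after a long delay differs from that after immediate repair. In mice that express eGFP under the human S100β promoter, the common peroneal nerve was joined to the tibial nerve with a silicone conduit, either at once (immediate repair) or after a delay of 8 weeks (delayed repair). All animals carried the transgene, and those of the immediate group had received an incision at the earlier date without the nerve injury. Ages were not given. From the regeneration bridge, 1000 cells were sorted as macrophages (F4/80, CD14, CD16/32 and CD11b) or as Schwann cells (GFP-positive and negative for the other markers), each from one animal without pooling. The distal nerve stump was sequenced whole at day 5.

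The 79 libraries from 32 male and female animals fell into 10 groups. Distal stump at day 5 had 9 delayed and 7 immediate libraries. Macrophages had 9 delayed and 8 immediate libraries at day 5, and 7 delayed and 8 immediate at day 14. The Schwann fraction had 9 delayed and 7 immediate libraries at day 5, and 7 delayed and 8 immediate at day 14. Of the animals, 31 gave both sorted fractions.

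Lysosomes are acidic compartments in which proteins, lipids and sugar chains are broken down, and phagocytes that clear myelin and cell debris after nerve injury hold many of them. The V-ATPase pumps protons across the membrane, and the low pH activates cathepsins and hydrolases. TFEB, a transcription factor, binds E-box-like CLEAR elements near many lysosomal genes, and osteoclasts and multinucleated giant cells use cathepsin K and the pump subunit encoded by Atp6v0d2.

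The promoter stretches below show where the E-box core of the CLEAR element lies in 5 of the genes. RefSeq windows (GRCm38.p6) from 250 bases before to 50 after the transcription start were present for 27 of the 34 genes, and both strands were searched. The palindromes CACGTG and TCACGTGA are nested, so a match to the longer one is also a match to the shorter. CACGTG was found in 10 of 27 members (37%), against 8.09% of all 27025 genes with a window, and TCACGTGA in 5 of 27 (18.5%) against 1.12%. The form extended to 10 bases by G before and C after was found in 0 of 27 members, 2.11% of other listed lysosomal genes and 0.37% of all genes. Of 95 other listed lysosomal genes with a window, 22 held CACGTG (23.2%). A match describes these letters and says nothing of binding. Capitals mark the CACGTG core in Lamp1 and the 8-base form in the others. All are written 5′ to 3′ on the gene's own strand, with the interval in GRCm38, for Lamp1 (chr8:13159080-13159160, plus strand), Gla (chrX:134601173-134601253, minus), Ctsd (chr7:142387899-142387946, minus), Atp6v1a (chr16:44139364-44139411, minus) and Ctsa (chr2:164833740-164833772, plus).
Lamp1: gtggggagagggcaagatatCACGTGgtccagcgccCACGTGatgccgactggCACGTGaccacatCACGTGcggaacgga
Gla: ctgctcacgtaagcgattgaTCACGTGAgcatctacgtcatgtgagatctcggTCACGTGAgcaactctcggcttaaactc
Ctsd: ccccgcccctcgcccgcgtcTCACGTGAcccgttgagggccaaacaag
Atp6v1a: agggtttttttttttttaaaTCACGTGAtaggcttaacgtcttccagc
Ctsa: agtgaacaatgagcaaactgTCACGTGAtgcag
Lamp1, which encodes the main lysosomal membrane glycoprotein, had 4 copies of the core just before its start, and Gla had 2 copies of the 8-base form. Ctsd held a further CACGTG centred at −243 and Ctsa a further TCACGTGA centred at 7, which are not shown. The other members with the core were Ctsl, Lgmn, Glb1, Arsa and Atp6v0d1. The windows of Ctsk, Ctss, Psap, Cd63, Cd68 and Tfeb itself did not hold these letters.

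Total estimated counts ranged from 3898778 to 9212710 in the stump, from 14928748 to 28499405 in macrophages and from 11614940 to 30796825 in the Schwann fraction. In macrophage libraries the F4/80 gene Emr1 lay between 825 and 1764 scaled CPM (counts relative to the library total, with one TMM scaling over all sorted libraries and another over the stumps), and Sox10 was at 0 in 16 of 17 libraries at day 5 and 12 of 15 at day 14. The 12 Schwann cell markers nevertheless summed to between 587 and 1323 in macrophages at day 5 and between 711 and 1055 at day 14, with Pmp22 alone between 414 and 1222 at day 5. The Schwann fraction carried low levels of its own markers, with Sox10 between 0 and 151 scaled CPM at day 5 and between 12.6 and 167 at day 14. The same 12 markers summed to between 237 and 1633 in this fraction at day 5, a range that reaches below that of macrophages, and to between 551 and 3800 at day 14, against between 16696 and 50612 over both days for 12 dendritic cell markers that include Cd74. The label was therefore kept only as the name of the gate, and the cells are called the Schwann fraction here. Macrophage markers summed to between 292 and 12033 in this fraction. The count of each comparison with the Schwann fraction was repeated without 5 libraries high in macrophage or neutrophil markers. These were delayed day 5 replicates 7 and 9, delayed day 14 replicate 4 and immediate day 14 replicates 3 and 5. Each comparison lost only those it held, and those with macrophages also lost the macrophage libraries of the same animals.

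Of the 3 kinds of sample, macrophages gave these genes the largest share of counts. The 34 genes took from 5.80% to 7.96% of the unscaled counts in macrophages at day 5. They took from 1.17% to 3.38% in the Schwann fraction at day 5, from 1.24% to 2.06% there at day 14 and from 1.02% to 2.02% in the stump. Stump libraries were made by rRNA depletion from tissue and sorted libraries from polyadenylated RNA of few cells, so stump levels are set beside sorted levels without a test. Cathepsins made up most of the macrophage sum, with between 42885 and 65515 scaled CPM at day 5.

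Per kilobase of exon, macrophage levels at day 5 were headed by Ctss (cathepsin S, which trims the invariant chain of MHC class II) at 5125 ± 609 scaled CPM per kb (mean ± SD, n = 17). Psap, the precursor of the saposins that present lipids to hydrolases, stood at 3625 ± 651. Ctsb (cathepsin B) was at 3620 ± 511 and Ctsd (cathepsin D) at 2987 ± 439. The spreads of Psap and Ctsb overlapped, and both lay below the mean of Ctss by more than the larger SD. At the other end, Galc (galactosylceramidase, which degrades the myelin lipid galactosylceramide), Arsb, Tfeb and Smpd1 (acid sphingomyelinase) lay at 1.89, 2.44, 3.52 and 5.37 scaled CPM per kb. In the Schwann fraction the order at day 5 began with Ctss at 1032, Psap at 880 and Ctsz (cathepsin Z) at 821, whereas Ctsb stood at 430. In the stump Psap led at 1181, followed by Ctsd at 722 and Ctss at 643.

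The comparisons of cells, days, repair and sex share libraries and are not independent of each other. The first set the Schwann fraction against macrophages of the same animals. At day 5 (16 libraries each), 30 of the 34 genes differed by edgeR's quasi-likelihood test (adjusted p under 0.05), 26 of them lower and 4 higher in the Schwann fraction. Among all 10074 genes tested 64.6% differed, with 28.9% lower and 35.6% higher. The median log2 difference was −1.52 over the members and 0.06 over all genes. For 21 members, each of them lower in the Schwann fraction, no library of one fraction reached the range of the other, against 15.2% of all genes. The excess over the background therefore lay in the lower direction.

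Of the 10 cathepsins and related proteases, 8 were lower in the Schwann fraction at day 5 and none higher. Ctsl (cathepsin L, chr13:64359337-64370890, minus strand) ranged from 57.2 through a median of 661 to 1690 scaled CPM in the Schwann fraction, and from 4291 through 6957 to 9132 in macrophages. The ranges did not touch, and the log2 difference was −3.17 (SE 0.35, adjusted p = 1.28e-09). Ctsb (chr14:63122462-63145923, plus strand) ranged from 547 through 2692 to 6486 in the Schwann fraction, and from 16987 through 22806 to 27325 in macrophages. Again every macrophage library exceeded every Schwann fraction library, by −3.06 on the log2 scale for the fraction relative to macrophages (SE 0.25, adjusted p = 2.05e-12). Ctsd, Ctsc (cathepsin C, which activates granule proteases), Ctsa and Ctss differed by −2.70, −2.68, −2.51 and −2.28 in log2. Lgmn (legumain, an asparaginyl endopeptidase) and Ctsz differed less, by −1.19 and −0.82. Ctsh (cathepsin H, −0.14, adjusted p = 0.143) and Ctsk (cathepsin K, 0.81, SE 0.74, adjusted p = 0.341) did not pass.

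Among the 11 hydrolases, 8 were lower and 2 higher in the Schwann fraction. Hexa, a subunit of the hexosaminidase that cleaves ganglioside GM2, differed by −2.27 in log2 (SE 0.18), and Psap by −2.03 (SE 0.17). Asah1 (acid ceramidase), Man2b1 (lysosomal alpha-mannosidase), Lipa (lysosomal acid lipase), Gla (alpha-galactosidase A), Galc and Glb1 (beta-galactosidase) differed by −1.97, −1.58, −1.57, −1.55, −1.28 and −1.01. The genes that went the other way were those of the sulfatases, Arsa (0.51, SE 0.13, adjusted p = 0.001) and Arsb (0.95, SE 0.35, adjusted p = 0.0176). Arsb ranged from 0.092 through 23.3 to 67.3 scaled CPM in the Schwann fraction and from 10.1 through 13.5 to 20.5 in macrophages, so the ranges overlapped and the Schwann fraction held both the lowest and the highest libraries. Smpd1 did not pass (−0.39, adjusted p = 0.142).

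The membrane and transport genes all differed, 5 lower and 1 higher. Cd68 (macrosialin, a lysosomal membrane protein abundant in macrophages) ranged from 56.1 through 180.3 to 497 scaled CPM in the Schwann fraction and from 1188 through 1476 to 1784 in macrophages. The ranges were separate, at a log2 difference of −2.79 (SE 0.24, adjusted p = 5.9e-12). Lamp1 (chr8:13159161-13175338, plus strand) ranged from 756 through 1094 to 1630.3 against 2659 through 3448 to 3870, also without overlap (−1.50, SE 0.097, adjusted p = 4.27e-15). Lamp2 and Npc1 (the transporter that exports cholesterol from the lysosome) differed by −1.57 each and Npc2 (its soluble partner) by −0.30. The tetraspanin gene Cd63 (chr10:128900989-128912822, plus strand) was higher in the Schwann fraction, with 1140.5 through 1613 to 3115 against 805 through 1266 to 1724 (0.42, SE 0.13, adjusted p = 0.00414), and its ranges overlapped.

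Of the V-ATPase genes, 5 of 6 were lower in the Schwann fraction at day 5. Atp6v1a, the catalytic A subunit, ranged from 109 through 196 to 359 scaled CPM, and in macrophages from 632 through 1126 to 1471. The fractions did not overlap for this gene (−2.30, SE 0.16, adjusted p = 4.3e-14). Atp6v1h (the regulatory H subunit) differed by −2.28, Atp6v1b2 (the B2 subunit) by −1.35, Atp6ap1 (an accessory protein) by −1.29 and Atp6v0d1 (the common d subunit) by −0.53. Atp6v0d2, the alternative d subunit, differed by −0.85 with a large error (SE 0.64, adjusted p = 0.25). Tfeb was higher (0.54, SE 0.19, adjusted p = 0.0155), with 10.5 through 28.4 to 51.2 against 10.03 through 20.5 to 32.5 and broad overlap.

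At day 14 (15 libraries each) 31 members differed, 30 lower and 1 higher in the Schwann fraction, against 64.8% of all genes called and 27.4% called lower and 37.4% higher. The median log2 difference was −1.92 over the members and 0.12 over all genes, and 23 members had separate ranges, against 16.3% of all genes. Ctsl ranged from 105 through 193 to 425 scaled CPM in the Schwann fraction and from 2214 through 4643 to 6463 in macrophages (−4.28, SE 0.19, adjusted p = 4.4e-18). Ctsb ranged from 764 through 1422 to 1767 against 15615 through 21314 to 22684 (−3.90, SE 0.13, adjusted p = 1.03e-21). Both pairs of ranges were far apart. Ctsd, Cd68, Ctss, Ctsa, Atp6v1a, Gla and Hexa followed with log2 differences from −3.71 to −2.59, and Atp6v0d2 now passed (−2.14, SE 0.63, adjusted p = 0.00386). Arsb was the single gene that was higher (1.34, SE 0.23, adjusted p = 6.99e-06). Cd63 (−0.35, adjusted p = 0.0429) and Tfeb (−0.73, adjusted p = 0.00517) were lower at this day. Ctsk, Arsa and Smpd1 did not pass.

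**Figure D1:**
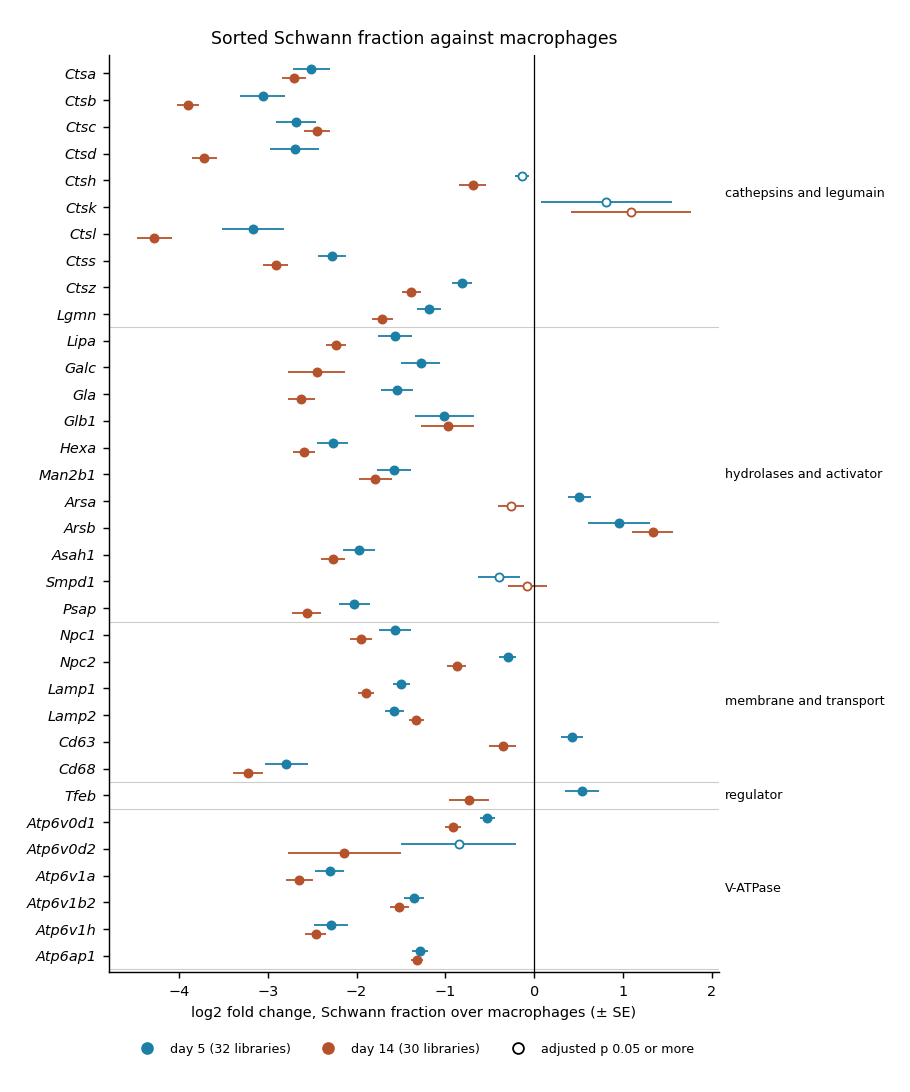
Log2 fold change of the Schwann fraction over macrophages for each of the 34 genes, grouped by role, with 1 SE, at day 5 (32 libraries) and day 14 (30 libraries). Filled points have an adjusted p under 0.05, open points do not. Most points lie left of 0, with Ctsl and Ctsb farthest on both days, while Arsb lies right of 0 on both days.

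Both fractions came from the same animals. With the animal as a block, Ctsk, Atp6v0d2 and Smpd1 passed at day 5 (log2 differences −2.27, −2.20 and −0.57, adjusted p = 0.0235, 0.00517 and 0.0373), whereas Arsb and Tfeb did not (0.58 and 0.46, adjusted p = 0.234 and 0.0549). At day 14 the block added Arsa (−0.33, adjusted p = 0.0273). The sign of Ctsk depended on the fit, and its level in the Schwann fraction differed widely between libraries, as described below. Without the animals of the 5 libraries high in other markers, 30 and 31 members passed at the 2 days, in the same directions by count (26 and 30 lower). Scaling by library size moved the median over all genes from 0.06 to 0.31 at day 5 and from 0.12 to 0.48 at day 14, and 28 members passed at each day, 24 and 27 of them lower.

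Beyond the members, 109 other listed lysosomal genes were measured in both comparisons, and 82 were lower and 14 higher in the Schwann fraction at day 5. Tpp1 (tripeptidyl peptidase), Mfsd1 and Plbd2 differed by −2.13, −1.90 and −1.40. The genes higher in the Schwann fraction included Laptm4b (5.64), Cst3 (cystatin C, an inhibitor of cathepsins, 2.36) and Map1lc3a (1.25). At day 14, 84 were lower and 11 higher, and Laptm4b (4.81), Cst3 (1.87) and Map1lc3a (1.65) again led the higher ones, whereas Pld3, Tpp1 and Atp6v1c1 differed by −3.06, −2.58 and −2.54.

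The difference between the 2 days was itself tested, a comparison added after the data had been seen. In 16 members the Schwann fraction lay further below macrophages at day 14 than at day 5, or lost its day 5 excess, and no member went the other way, against 15% of all genes called and 10.5% in that direction. The change in the log2 difference was −1.28 for Tfeb, −1.18 for Galc, −1.11 for Ctsl, −1.07 for Gla and −1.02 for Ctsd. Cd63 and Arsa each changed by −0.79. With the animal as a block 12 of the 16 passed, and Ctsb, Ctsd, Ctsl and Lgmn did not (−0.62, −0.74, −0.73 and −0.50, adjusted p = 0.153, 0.0843, 0.258 and 0.0525). Without the animals of the 5 libraries high in other markers, 8 members passed, namely Ctsh, Ctss, Ctsz, Gla, Arsa, Npc2, Cd63 and Tfeb. Macrophage markers in the Schwann fraction summed to between 292 and 12033 scaled CPM at day 5 and between 712 and 5890 at day 14, and their part in this change was not tested.

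Ctsk and Atp6v0d2 varied most between libraries of the Schwann fraction. Ctsk (chr3:95499256-95509362, plus strand) ranged from 1.02 to 2717 scaled CPM over the 31 libraries, with 12 above 100 and 9 under 10. By group it ran from 3.18 through a median of 24.0 to 1590 in delayed repair at day 5, from 2.39 through 8.36 to 246 in immediate repair at day 5, from 7.42 through 47.4 to 2717 in delayed repair at day 14 and from 1.02 through 212 to 1613 in immediate repair at day 14. Each group thus held both low and high libraries. In macrophages it was steadier, from 53.0 to 397 with 26 of 32 libraries above 100.

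Atp6v0d2 (chr4:19876841-19922605, minus strand) ranged from 0 to 455 scaled CPM in the Schwann fraction, with 5 of 31 libraries above 100 and 12 under 10. In macrophages all 15 libraries of day 14 lay at or above 182, whereas those of day 5 lay between 20.9 and 298. Over the 31 Schwann fraction libraries the ranks of Ctsk and Atp6v0d2 went together (Spearman's rho 0.90), a description over libraries that share a sort and mixed cell content. The osteoclast marker genes Dcstamp, Ocstamp, Oscar and Acp5 (the first pair needed for cell fusion, Acp5 encoding tartrate-resistant acid phosphatase) ranked with Ctsk at rho 0.79, 0.79, 0.71 and 0.68. Itgb3 was at 0.41, Tnfrsf11a at −0.29 and the sum of the osteoclast markers at 0.47. Calcr was at 0 scaled CPM in every library, and Oscar in 18 of the 31. Delayed repair day 14 replicate 1 was highest in Ctsk (2717) and Atp6v0d2 (455) and held 1365 scaled CPM of Acp5.

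**Figure D2:**
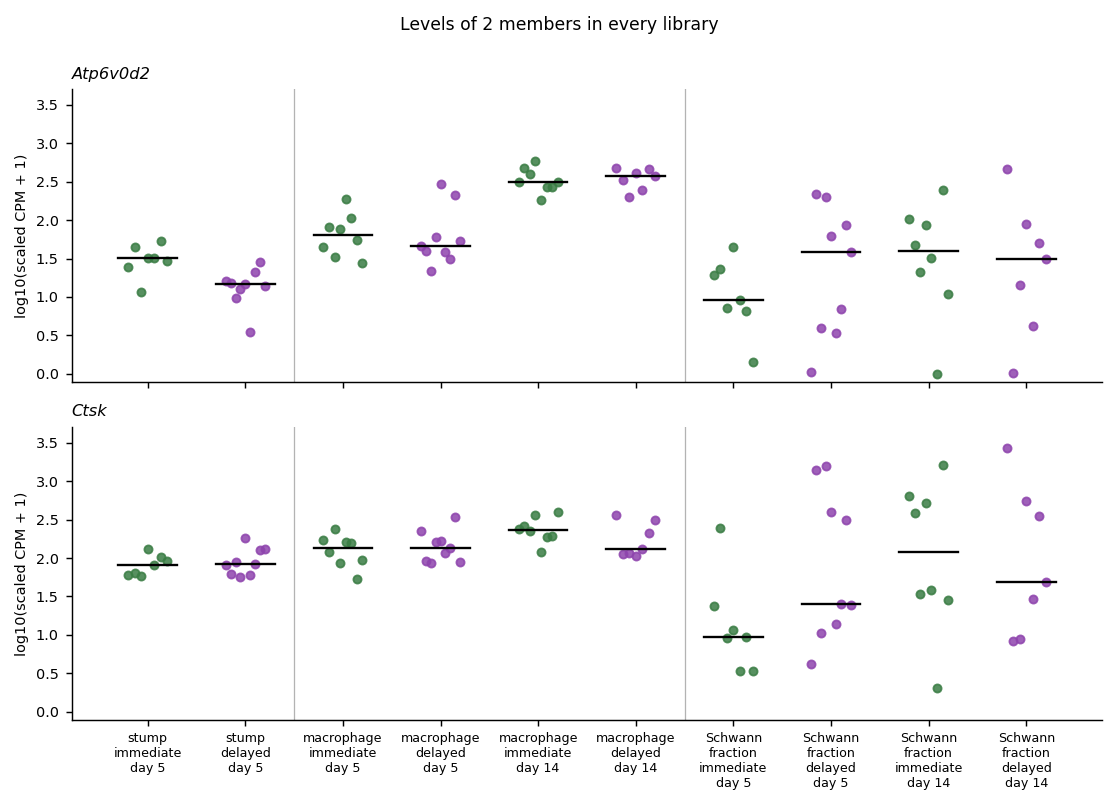
Atp6v0d2 and Ctsk in every library of the 10 groups, as log10 of scaled CPM + 1, with the group median as a bar. Macrophage values cluster and Atp6v0d2 steps up at day 14, whereas Schwann fraction values spread from near 0 to above 1000 for Ctsk.

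Ctsb and Ctsl, the other cathepsins ranked in this way, were less close to Atp6v0d2 (rho 0.28 and 0.26). Ctsb ranked with the summed macrophage markers at 0.79. Cd68 and Ctsl ranked with the macrophage markers at 0.77 and 0.66. Ctsk in contrast ranked with the macrophage sum at 0.14, with fibroblast markers at 0.16, with Schwann cell markers at 0.05 and with dendritic cell markers at −0.26. These values cover 31 libraries each and carry no test.

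**Figure D3:**
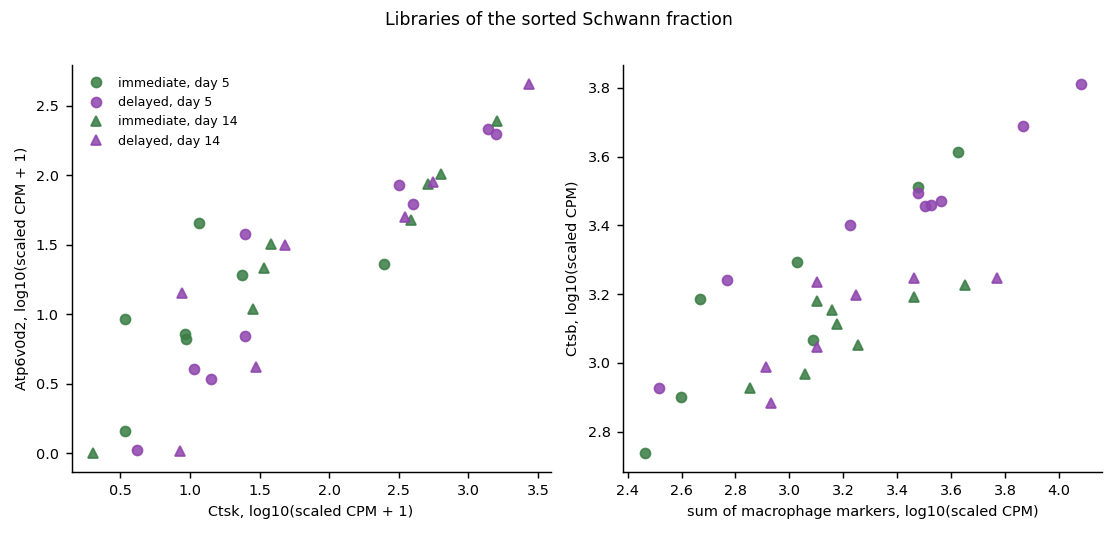
The 31 libraries of the Schwann fraction on log axes. Left, Ctsk against Atp6v0d2 in scaled CPM (rho 0.90). Right, Ctsb against the summed macrophage markers (rho 0.79).

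Macrophages were next compared between day 14 and day 5 within each repair group. After immediate repair (8 libraries at each day) 11 members differed, 5 higher and 6 lower at day 14, against 11.3% of all 8507 genes tested (5.33% higher and 6.01% lower). Atp6v0d2 rose most. It ranged from 182 through 315 to 578 scaled CPM at day 14 and from 26.5 through 64.1 to 189 at day 5, and its ranges met only at 182 to 189 (2.24 in log2, SE 0.35, adjusted p = 0.000382). Ctsk rose from a median of 137 to 231 (0.94, SE 0.27, adjusted p = 0.0302), Galc from 27.6 to 41.5 (0.76, SE 0.16, adjusted p = 0.00431), and Man2b1 and Cd63 rose by 0.48 and 0.38 in log2.

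The genes that fell after immediate repair were cysteine proteases, membrane proteins and a pump accessory gene. Lgmn ranged from 1869.8 through 2075 to 2323 at day 14 and from 2686 through 3086 to 3588 at day 5 (−0.55, SE 0.081, adjusted p = 0.000235). Ctsc ranged from 1676 through 1896 to 2265 and from 2439 through 2649 to 2956 (−0.43, SE 0.09, adjusted p = 0.00375). These were the 2 members whose days did not overlap, against 2.25% of all genes. Ctsl fell by 0.69 (SE 0.12, adjusted p = 0.000924), from a median of 7393 to 4350, with slight overlap. Cd68 fell by 0.30, and Lamp2 and Atp6ap1 by 0.27 each. Ctsb, Ctsd, Ctss and the pump subunits Atp6v1a, Atp6v1b2 and Atp6v1h did not pass.

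The split between higher and lower moved with the scaling. With library size in place of TMM the median over all genes shifted from 0.01 to 0.17 in log2, and 14 members passed, 11 higher and 3 lower (Ctsc, Ctsl and Lgmn). Cd68, Lamp2 and Atp6ap1 then differed by −0.13, −0.11 and −0.11 without passing. Ctsc, Ctsl, Lgmn, Galc and Atp6v0d2 passed in each of the 16 fits that left out one library. The count fell to 7 without day 5 replicate 2 or 5 or day 14 replicate 1 or 5. The 12 dendritic cell markers summed to between 1465 and 5722 scaled CPM in macrophages at day 5 and between 8035 and 20882 at day 14, and their part in these differences was not tested. In such sorted pools and in whole tissue, fewer cells of a type and less RNA per cell cannot be told apart.

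After delayed repair (7 libraries at day 14 and 9 at day 5) 5 members differed, all higher at day 14, against 6.41% of all genes and 3.28% higher. Lipa ranged from 681 through 860.4 to 996 scaled CPM at day 14 and from 421 through 559 to 632 at day 5 (0.62, SE 0.11, adjusted p = 0.00177). Cd63 ranged from 1490.5 through 1662 to 2078 and from 805 through 1219 to 1438 (0.64, SE 0.13, adjusted p = 0.00398). For both genes the days did not overlap, as for 1.56% of all genes. Psap rose by 0.48 (SE 0.1, adjusted p = 0.00647), from a median of 9149 to 12010. Atp6v0d2 rose from a median of 44.6 to 370 (2.02, SE 0.49, adjusted p = 0.0158), with 2 day 5 libraries, the higher at 298, inside the day 14 range. Man2b1 rose by 0.42 (adjusted p = 0.04) and was the only one of the 5 lost in any fit that left out one library. The count was 9 with DESeq2 (7 higher and 2 lower), 8 with sex as a covariate (7 and 1) and 10 with limma-voom (7 and 3).

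Atp6v0d2, Man2b1 and Cd63 passed in both repair groups. Lgmn (−0.37, adjusted p = 0.0528), Galc (0.61, adjusted p = 0.0606) and Atp6ap1 (−0.27, adjusted p = 0.059) had values near those of immediate repair but did not pass after delayed repair. Ctsc (−0.41, adjusted p = 0.207), Ctsl (−0.44, adjusted p = 0.168), Ctsk (0.31, adjusted p = 0.627), Cd68 (−0.13, adjusted p = 0.47) and Lamp2 (−0.11, adjusted p = 0.52) did not pass there either. The test of whether the day difference depended on repair called none of the members by edgeR, against 0.0223% of all genes, and 1 at an unadjusted p under 0.05 (3.61% of all genes). DESeq2 gave 0 too. Of the other listed lysosomal genes, 17 of 105 differed after immediate and 13 of 104 after delayed repair. Acp5 rose by 0.75 and 0.92 and Pld3 by 0.65 and 0.98, while Plbd1 fell by 0.68 and 0.82 and Aga by 0.59 and 0.62.

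**Figure D4:**
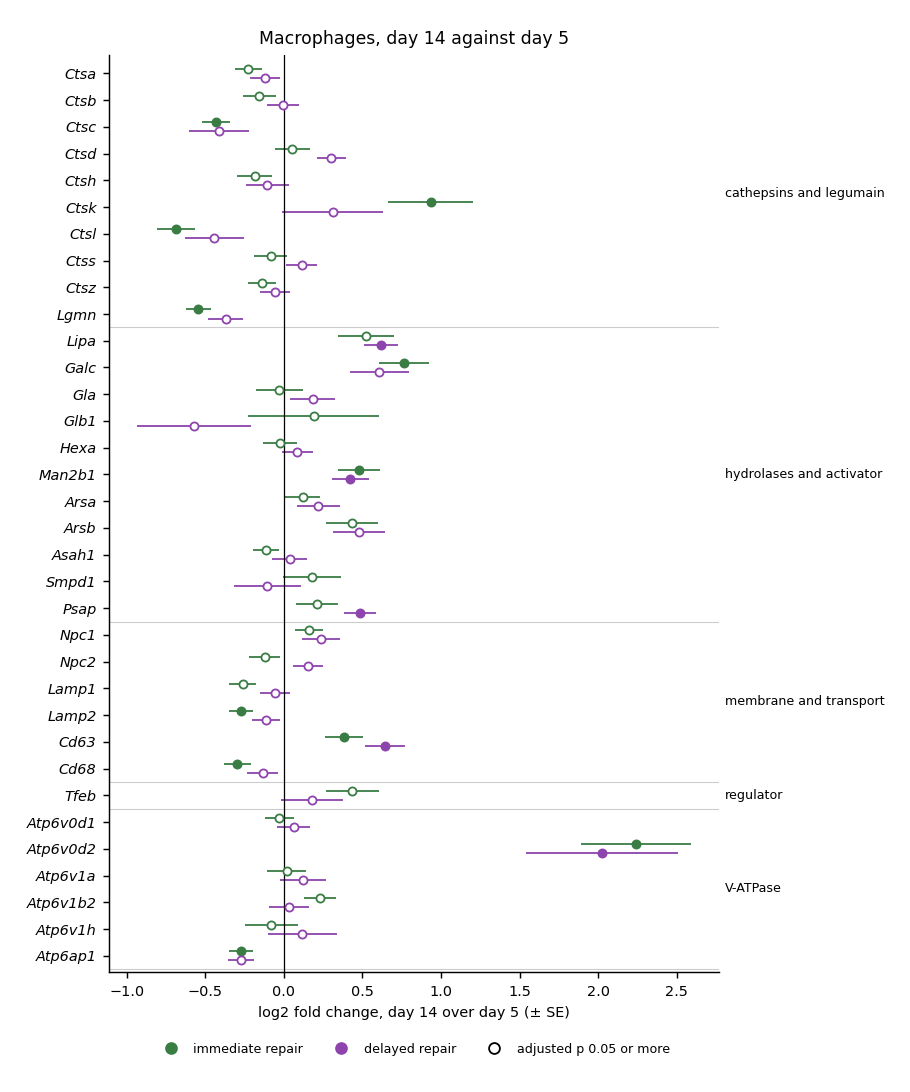
Log2 fold change of macrophages at day 14 over day 5 for the 34 genes, with 1 SE, after immediate repair (16 libraries) and delayed repair (16 libraries). Atp6v0d2 stands apart near 2 in both, and most other genes lie within 1 of 0.

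In the Schwann fraction the same comparison of days gave lower values at day 14 for each member called. After immediate repair (8 and 7 libraries) Lgmn alone passed, against 3.81% of all genes called and 3.1% lower. It ranged from 444 through 597 to 972 scaled CPM at day 14 and from 818 through 1086 to 2154 at day 5 (−0.997, SE 0.22, adjusted p = 0.02). The ranges overlapped. With the replicate number as a block Lgmn did not pass (−1.01, adjusted p = 0.0634), and Ctsk alone passed, higher at day 14 (4.08, SE 0.83, adjusted p = 0.0464). The count was 4 without day 14 replicate 5 and 2 without day 5 replicate 2.

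After delayed repair (7 and 9 libraries) 8 members were lower at day 14, against 8.09% of all genes called and 4.75% lower. Ctsl ranged from 127 through 208 to 425 at day 14 and from 57.2 through 915 to 1690 at day 5 (−1.78, SE 0.50, adjusted p = 0.0382). Ctsh ranged from 278 through 375 to 714 and from 605 through 808 to 955 (−0.85, SE 0.18, adjusted p = 0.0134). Gla ranged from 37.8 through 64.7 to 96.2 and from 78.7 through 142 to 249 (−1.14, SE 0.27, adjusted p = 0.0193). No member separated the days completely, against 1.37% of all genes. For Ctsh a single day 14 library entered the day 5 range. With library size scaling, which moved the median over all genes from 0.03 to 0.22, 4 members passed, all lower. Ctsb, Lgmn, Ctsz, Lamp1 and Npc2 differed by −1.11, −0.89, −0.76, −0.58 and −0.54.

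Other markers moved in the same comparison. Fibroblast markers summed to between 1598 and 16067 scaled CPM at day 14 and between 17.0 and 3582 at day 5, and Schwann cell markers to between 708 and 3800 against between 237 and 661, without overlap. Macrophage markers summed to between 819 and 5890 with a median of 1270 at day 14, and between 329 and 12033 with a median of 3188.5 at day 5. The part of these markers in the calls was not tested. The calls also depended on libraries that stood apart. Without delayed day 5 replicates 7 and 9 and day 14 replicate 4, none of the members passed by edgeR and 10 had an unadjusted p under 0.05, as had 2027 of all 9579 genes tested in that fit (Ctsh −0.76, adjusted p = 0.0704, Gla −1.02, adjusted p = 0.0759, Ctsl −1.43, adjusted p = 0.159). The count was 5 or lower without day 5 replicate 3, 4, 7 or 9 or day 14 replicate 1, 2, 4, 6 or 8, and Ctsh, Ctsz and Gla passed in every fit that left out one library. The test of whether the day difference in this fraction depended on repair called none of the members by edgeR or DESeq2 (0% of all genes), and 1, Atp6v1h, had an unadjusted p under 0.05 (4.8% of all genes).

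Repair groups were compared in the distal stump at day 5, where 10 members differed between delayed (9 libraries) and immediate repair (7 libraries), 5 in each direction. Among all 12229 genes tested 26.3% differed (12.8% higher and 13.5% lower), so the members' share of calls was close to the background. The median log2 difference was 0.03 over the members and 0.02 over all genes. No member had separate ranges, against 4.68% of all genes.

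The genes lower after delayed repair were Atp6v0d2, Smpd1, Cd63, Npc1 and Psap. Atp6v0d2 stood at 15.1, 14.2, 8.61, 11.8, 13.7, 2.55, 20.4, 27.1 and 13.0 scaled CPM in the 9 delayed stumps. In the 7 immediate stumps it stood at 23.3, 43.5, 10.6, 31.6, 30.8, 52.8 and 28.3. Apart from 1 immediate stump at 10.6 and 1 delayed stump at 27.1 the groups were apart (−1.17, SE 0.33, adjusted p = 0.0147). Smpd1 (chr7:105554360-105558389, plus strand) stood between 22.3 and 31.1 with a median of 27.7 after delayed repair and between 28.7 and 49.5 with a median of 34.6 after immediate repair (−0.37, SE 0.1, adjusted p = 0.012).

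Cd63 ranged from 202 through 269 to 364 scaled CPM after delayed and from 309.7 through 386 to 536 after immediate repair (−0.52, SE 0.15, adjusted p = 0.0156). Npc1 ranged from 123 through 159 to 226 and from 174 through 207 to 264 (−0.42, SE 0.12, adjusted p = 0.0161). Psap ranged from 2076 through 2978 to 3938 and from 3047 through 3789.9 to 4300 (−0.37, SE 0.13, adjusted p = 0.0473). The upper part of each delayed range lay inside the immediate range. Smpd1, Npc1, Cd63 and Atp6v0d2 passed in each of the 16 fits that left out one library. With no filter these 4 alone passed, and with the replicate number as a block only Smpd1 and Atp6v0d2.

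The genes higher after delayed repair were Ctss, Ctsc, Arsb, Man2b1 and Arsa. Ctss ranged from 654 through 1029 to 1799.9 after delayed and from 249 through 658 to 914 after immediate repair (0.69, SE 0.24, adjusted p = 0.0389). Ctsc ranged from 408 through 525 to 739 and from 166 through 287 to 556 (0.64, SE 0.22, adjusted p = 0.0383). Most delayed libraries lay above the immediate median for both genes. Arsb, Man2b1 and Arsa rose by 0.40, 0.39 and 0.23 in log2, with adjusted p from 0.0438 to 0.0462. Tfeb came close (0.32, adjusted p = 0.0553) and Ctsh and Lgmn did not pass (0.42 and 0.46, adjusted p = 0.0809 and 0.0825).

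**Figure D5:**
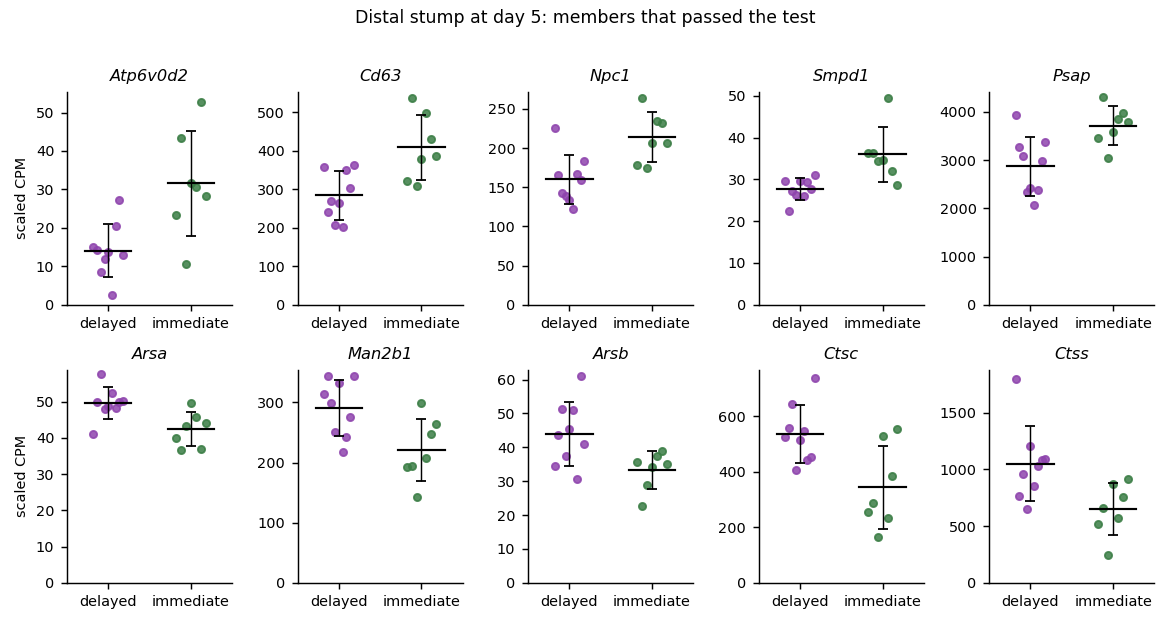
Scaled CPM of the 10 called members in each distal stump library after delayed (9) and immediate (7) repair, with mean ± SD. The groups overlap for every gene. Apart from 1 library in either group, immediate stumps lie above delayed stumps for Atp6v0d2.

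Summed macrophage markers were between 4240 and 7369 scaled CPM in delayed stumps and between 1890 and 6895 in immediate stumps, and summed Schwann cell markers between 189 and 835 against between 1445 and 3292. Endothelial markers summed to between 1108 and 1578 in delayed and between 680.1 and 946 in immediate stumps, also without overlap. Osteoclast markers summed to between 158 and 230 against between 112 and 162. Most of this sum was Tnfrsf11a and Itgb3. Tnfrsf11a lay between 53.9 and 78.3 scaled CPM in delayed and between 29.2 and 55.1 in immediate stumps. The ranges of Itgb3 and Acp5 overlapped widely, and Calcr, Oscar, Dcstamp and Ocstamp lay at or below 3.75 in every stump. The sum therefore cannot tell whether osteoclast genes as a group went with or against Atp6v0d2. The part of this composition in the 10 calls was not tested. Without the 2 delayed stumps that held skeletal muscle RNA (replicates 5 and 9, muscle markers at 2202 and 209 scaled CPM), 4 members passed and each of the 5 higher calls was lost. The count was 6 or lower without delayed replicate 2, 3, 5, 8 or 9 or immediate replicate 1, 2, 3, 6 or 7. Of 107 other listed lysosomal genes, 17 rose and 13 fell in delayed stumps, among them Laptm5 (0.80), Prcp (0.58) and Acp2 (0.48), and Atp6v0e2 (−1.73), Hyal1 (−1.08) and Scarb2 (−1.01).

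In the sorted fractions no member differed between delayed and immediate repair. In macrophages edgeR called none at day 5 (0.0357% of all genes called) and none at day 14 (0% of all genes), and DESeq2 gave 0 at both days. At an unadjusted p under 0.05 (5.17% of all genes at day 5 and 2.21% at day 14) there were 2 at day 5, Cd63 (−0.37, unadjusted p = 0.0154, adjusted p = 0.807) and Npc1 (−0.23, unadjusted p = 0.0269), and 0 at day 14. Cd63 in macrophages at day 5 ranged from 805 through 1219 to 1438 after delayed repair and from 959.8 through 1535 to 1866 after immediate repair.

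In the Schwann fraction edgeR called none of the members at day 5 or day 14 (0% of all genes at either day), and DESeq2 gave 0 at both. At day 5, 7 had an unadjusted p under 0.05 (5.26% of all genes), and at day 14 there were 0 (3.65% of all genes). Atp6v1h ranged from 79.0 through 169 to 191 scaled CPM after delayed repair and from 59.8 through 78.3 to 139 after immediate repair (0.75, SE 0.22, adjusted p = 0.684). Atp6v1a ranged from 149 through 247 to 359 and from 109 through 172 to 217 (0.69, SE 0.20, adjusted p = 0.705). Both overlapped between the groups. The estimate was above 0 for 31 of 34 members, with a median of 0.45 against −0.01 over all genes. Without delayed replicates 7 and 9, which were high in macrophage markers, it was above 0 for 28 members, with a median of 0.26. Macrophage markers summed to between 329 and 12033 scaled CPM after delayed and between 292 and 4234 after immediate repair.

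Replicates 1 to 4 were male and 5 to 9 female, and libraries were compared by sex with repair as a covariate, a comparison added after the data had been seen. In macrophages at day 5 (8 male and 9 female libraries) 11 members differed, 5 higher and 6 lower in males, against 25.1% of all genes (11.3% higher and 13.8% lower). Genes of the pump made up 4 of the 5 higher, while Atp6v0d2 was estimated lower without passing (−1.25, SE 0.46, adjusted p = 0.0531). Atp6v1h ranged from 727 through 796 to 968 scaled CPM in males and from 348 through 446 to 608 in females (0.75, SE 0.11, adjusted p = 0.000102). Atp6v1a ranged from 1161 through 1253 to 1471 and from 632 through 883 to 1091 (0.46, adjusted p = 0.00368). These 2 genes did not overlap between the sexes, against 3.5% of all genes. The scaling factors of these libraries ran from 0.757 to 0.827 in males and from 0.826 to 1.02 in females. No fit with library size scaling was run for the sex comparisons. Atp6v1b2 (0.34), Atp6v0d1 (0.27) and Gla (0.42) were also higher in males, and Glb1 (−1.09), Smpd1 (−0.62), Tfeb (−0.59), Galc (−0.49), Ctsh (−0.32) and Lgmn (−0.20) lower. Macrophage markers in these libraries summed to between 31709 and 41302 scaled CPM in males and between 20707 and 39117 in females. Schwann cell markers summed to between 762 and 1323 against between 587 and 1010. The part of these markers in the 11 calls was not tested.

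Of 12 listed V-ATPase genes outside the members, 8 were called in macrophages at day 5, 7 higher in males and 1, Atp6v0a1, lower (−1.43, SE 0.27, adjusted p = 0.000945). In macrophages at day 14, in the stump and in the Schwann fraction at day 14 none of the members was called by sex with edgeR (0.0466%, 0.0654% and 0.0391% of all genes), and 2, 2 and 0 had an unadjusted p under 0.05 (3.07%, 14.6% and 2.52% of all genes). In the Schwann fraction at day 5, Man2b1, Ctsc, Asah1 and Psap were lower in males (−1.05, −1.03, −0.94 and −0.81), against 7.02% of all genes called and 1.66% lower, and 1 was called without the libraries high in other markers. Macrophage markers in these libraries summed to between 292 and 4234 scaled CPM in males and between 468 and 12033 in females, and dendritic cell markers to between 26202 and 50612 against between 24193 and 38656. Their part in these 4 calls was not tested. Sex goes with the replicate number, so this comparison does not separate sex from anything done by replicate number, and the difference between days was not tested. In macrophages at day 5, Atp6v1h also tended to fall along the replicate number within a sex. After immediate repair it stood at 968, 827, 847 and 760 in males and 573, 608, 517 and 358 in females. After delayed repair it stood at 955, 764, 729 and 727 and at 530, 446, 408, 348 and 392. The part of replicate number in the sex calls was not tested.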

How the data were processed

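RNA was sequenced from 79 libraries. Per the labels and the study's methods, the authors trimmed reads with cutadapt 1.8, aligned them to mm10 with TopHat2 2.1.1 and used Cufflinks 2.2.1 for normalisation. The deposited values used here are estimated counts per gene (0.951% to 1.18% are not whole), and the program that wrote them is not given in the sources used here. Kits differed between stump and sorted libraries, so these were analysed apart.

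Counts were rounded and tested in R 4.3.3 with edgeR 4.0.16 (quasi-likelihood, TMM scaling) over genes that reached 5 CPM in 6 or more libraries of a comparison. The Benjamini-Hochberg adjustment covered all genes tested, with a threshold of 0.05, and the SE was the log2 fold change over the root of F. The fits were tested on simulated data. Levels are TMM-scaled CPM, divided by exon length where genes were compared. Alternatives used DESeq2 1.42.0, limma 3.58.1 (voom), other filters and scaling, sex, a block and libraries left out. Each library is 1 animal, and the precision rests on their number.

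The 34 genes are named throughout. Of other lysosomal genes, up to 3 in each direction with the smallest p were named. Members and lists were chosen with earlier results of these data known. Macrophage and Schwann fraction libraries of an animal are paired by design. Their deviations from the group means correlated at 0.00649 to 0.287 (median 0.128) over 16 pairs at day 5 and at 0.0569 to 0.248 (median 0.135) over 15 pairs at day 14.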

Additional observations from a re-analysis of the deposited data

Results flagged for a closer look

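In groups of 7 to 9 libraries, 390 levels and sums were examined for a library that stood far from the others, and 33 were found, where chance gives about 1 in 20. The value in each case is the gap to the nearest library divided by the whole range of the group. In delayed stumps replicate 1 was high in Ctss (0.518), Gla (0.519) and Atp6v1a (0.585), and in immediate stumps replicate 6 was high in Smpd1 (0.63). In delayed macrophages at day 14, replicate 8 was low in Ctsb (0.576), replicate 1 stood apart in Ctsz (0.782), and replicate 4 in Galc (0.685) and Man2b1 (0.768). In immediate macrophages at day 5, replicate 8 was low in the sum of membrane genes (0.605) and replicate 1 low in Man2b1 (0.56).

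The others all lay in the Schwann fraction. In delayed repair at day 14, replicate 1 stood apart in Ctsk (0.797), Atp6v0d2 (0.804), Smpd1 (0.718), Atp6v1a (0.671), Atp6ap1 (0.625) and the V-ATPase sum (0.79), replicate 4 in Ctsa (0.58) and Asah1 (0.751), and replicate 3 in Atp6v0d1 (0.57). In delayed repair at day 5, replicate 9 stood apart in Ctsd (0.514). In immediate repair at day 14, replicate 5 stood apart in Ctsh (0.766), Ctss (0.649), Ctsz (0.67), Npc2 (0.79), Lamp1 (0.54), Cd63 (0.686) and the membrane sum (0.684), and replicate 7 in Ctsk (0.605) and Atp6v0d2 (0.59). In immediate repair at day 5, replicate 2 stood apart in Ctsk (0.917), and replicate 3 in Arsa (0.624), Npc2 (0.598) and Cd63 (0.58).

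The log2 difference between the Schwann fraction and macrophages itself differed between day 14 and day 5 for 16 members by edgeR. The change was −0.84 for Ctsb, −1.02 for Ctsd, −0.56 for Ctsh, −1.11 for Ctsl, −0.63 for Ctss, −0.58 for Ctsz and −0.53 for Lgmn. It was −0.68 for Lipa, −1.18 for Galc, −1.07 for Gla, −0.79 for Arsa and −0.58 for Npc2. For Lamp1 it was −0.41, for Cd63 −0.79, for Tfeb −1.28 and for Atp6v0d1 −0.39.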

How the results depend on the processing

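Over the members called in a comparison and a few uncalled ones named in the text, 1223 values kept their direction and side of the threshold under the alternatives, 258 lost and 11 gained the call, and 5 changed sign, of which 4 are Ctsk. Over all members not called in a comparison, 81 of 4874 values under the alternatives passed. Ctsk in the Schwann fraction over macrophages went from 0.81 to −1.56 (limma-voom) and −2.27 (replicate block) at day 5 and from 1.09 to −0.93 and −1.02 at day 14, and Arsa at day 14 from −0.26 to 0.12 with library size scaling. Counts of called members stayed within 1.5 times in 142 fits and moved further in 41. In stumps the count of 10 became 4 with no filter, 2 with the replicate block and 4 without the stumps holding muscle RNA. Macrophages after immediate repair went from 11 to 7 with no filter, and after delayed repair from 5 to 9 (DESeq2), 8 (sex as covariate) and 10 (limma-voom). The Schwann fraction went after immediate repair from 1 to 4 (DESeq2), 2 (limma-voom) and 3 (without the libraries high in other markers), and after delayed repair from 8 to 4 (library size), 5 (sex), 3 (replicate block) and 0 (without those libraries). The change with day went from 16 to 8 and the sex comparison of the Schwann fraction at day 5 from 4 to 1 without them. Leaving out one library gave 4 to 10 in stumps, 7 to 13 and 4 to 6 in macrophages and 1 to 4 and 3 to 10 in the Schwann fraction (immediate, then delayed). The cause was not tested. Outside the cell comparisons the labels tie no animals by replicate number, and the main fits hold no such block. Same-numbered pairs of the repair groups correlated above 0.1 for 1 of 7 in stumps. In macrophages these were 7 of 8 at day 5 and 6 of 7 at day 14, with medians of 0.26 and 0.255. The same number gave the best match for 3 of the 8 and 5 of the 7 macrophage pairs. The replicate block gave 8 and 5 calls in macrophages by day, 1 in the Schwann fraction after immediate repair (Ctsk in place of Lgmn) and 0 for repair in sorted fractions. Whether depth limits any call was not tested.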
